A study of Homo sapiens with 6 samples.

Results

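Ephrins are membrane-bound ligands and the Eph proteins are their receptor tyrosine kinases, so that both sides of a cell contact can receive a signal, forward through the receptor and in reverse through the ligand. Ephrin-A ligands are held by a lipid anchor and ephrin-B ligands cross the membrane. In the mouse intestine EphB receptors are known from the crypt, where Wnt signalling maintains them and where they sort cells along the crypt axis against the ephrin-B ligands of the cells above. The 4 genes described here were the ligand gene EFNB2 (ephrin-B2) and the receptor genes EPHA2, EPHA7 and EPHB3, found by their gene symbol among the 14884 genes that could be named on the arrays, with 1 probe set each. They were selected on gene family with the log2 differences between NHE3kd and Ctrl on these arrays already known, so those differences are given as a description, without a test. Another 17 ephrin and Eph genes had a named probe set and are set beside them.

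The arrays, Affymetrix Human Gene 2.0 ST, held total RNA of SK-CO15, a cell line from a human adenocarcinoma of the colon, in 3 NHE3kd samples (replicates 2, 3 and 10) and 3 Ctrl samples (replicates 1, 4 and 9). NHE3kd cells stably carried a lentiviral pool of shRNAs against SLC9A3, the gene of the sodium-proton exchanger NHE3, and Ctrl cells carried a scrambled shRNA in the same vector, which also expresses EGFP and a puromycin resistance gene. Both were kept as mixed populations sorted for EGFP and selected with puromycin, in one culture medium, and RNA was taken at confluence. The labels do not state whether replicates were grown as cultures of their own, and the p-values therefore reflect just the variation among these samples, possibly technical. The deposited values are log2 differences from the Ctrl mean of each probe set. They hold no expression level, so a gene that is silent in these cells cannot be told from an expressed gene that did not change, and levels of different genes cannot be compared. In RNA from a whole culture, fewer cells of a type and less RNA per cell cannot be told apart. SLC9A3 was without a named probe set, so the knockdown was not checked here. Without levels the presence of colonic epithelial markers could not be checked either. Of the 9 measured, VIL1 (villin, 0.77) was higher in NHE3kd cells and 0 were lower by limma (11.1% called, beside 14.5% of all named genes). KRT20, named after its value was seen, had a larger difference in the other direction (-0.86, SE 0.22, adjusted p = 0.081) and did not pass. These 2 were the only ones with an unadjusted p under 0.05. Of 8 measured markers of endothelium, mesenchyme and leukocytes, LYZ was higher and CD68 was lower (25% called). The 2 LYZ probe sets differed in size, at 1.455 (adjusted p = 0.052 by limma) and 0.395 (adjusted p = 0.024). The part of any other cell type in the results below was not tested.

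The promoters of the 3 genes that differed between the groups are shown because EPHA2 and EPHB3 were both lower and EFNB2 was higher in NHE3kd cells. Each is the 250 bases before the start of the gene in RefSeq (GRCh38.p14), written 5′ to 3′ on the strand of the gene: chr13:106535663-106535912, minus strand, for EFNB2, chr1:16156070-16156319, minus strand, for EPHA2 and chr3:184561535-184561784, plus strand, for EPHB3. Capitals mark matches to the motifs searched, on both strands unless stated: the GC box GGGCGG, the CCAAT box, the TATA box TATAAA (on the strand of the gene), the cyclic AMP response element TGACGTCA, the AP-1 site TGANTCA, the TCF/LEF sites CTTTGAT and CTTTGAA, and the RBPJ core TGGGAA.
EFNB2: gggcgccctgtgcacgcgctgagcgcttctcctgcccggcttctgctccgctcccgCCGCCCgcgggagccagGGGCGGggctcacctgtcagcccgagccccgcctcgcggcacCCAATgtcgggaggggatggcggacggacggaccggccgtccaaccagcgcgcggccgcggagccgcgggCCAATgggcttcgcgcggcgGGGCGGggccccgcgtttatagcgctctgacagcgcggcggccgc
EPHA2: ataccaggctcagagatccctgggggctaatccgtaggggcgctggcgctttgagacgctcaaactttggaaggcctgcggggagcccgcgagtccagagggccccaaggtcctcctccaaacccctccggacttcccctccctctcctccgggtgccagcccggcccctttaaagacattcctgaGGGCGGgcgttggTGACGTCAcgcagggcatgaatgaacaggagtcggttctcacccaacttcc
EPHB3: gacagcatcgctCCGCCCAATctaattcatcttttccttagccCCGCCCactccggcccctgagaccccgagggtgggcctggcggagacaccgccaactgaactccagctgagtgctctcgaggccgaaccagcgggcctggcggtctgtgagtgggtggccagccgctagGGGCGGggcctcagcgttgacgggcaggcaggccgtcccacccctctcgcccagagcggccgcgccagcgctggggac
The EFNB2 promoter was the most CpG-rich of these 3, with 40 CpG dinucleotides. The median over 27305 RefSeq promoters was 11, and 97.9% of them had fewer than EFNB2. This was not particular to EFNB2 among the ephrin and Eph genes with a listed promoter. EPHA8 (42) and EFNA5 (41), neither past the test, had more, EFNA2 (36), lower in NHE3kd cells, came next, and the rest had fewer. The EFNB2 window held 3 GC boxes and 2 CCAAT boxes. EPHB3 had 21 CpGs, 3 GC boxes and 1 CCAAT box, which overlaps the first GC box. EPHA2 had 15 CpGs and 1 GC box, and it was the only one of the 19 ephrin and Eph genes with a listed promoter to hold the cyclic AMP response element, which 1.77% of all promoters held. GC boxes stood in 42.3% and CCAAT boxes in 33.0% of all promoters. None of the 3 windows held the TATA box (7.17% of all promoters), the AP-1 site (6.6%), a TCF/LEF site (6.03%) or the RBPJ core (21.1%), which says only that these letters are not in these windows. EPHA7 had 19 CpGs, 4 GC boxes, 2 CCAAT boxes and 1 RBPJ core in the first of its 3 listed starts.

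The ligand gene EFNB2 was higher and the receptor genes EPHA2 and EPHB3 were lower in NHE3kd cells, whereas EPHA7 had the same mean in both groups. EFNB2 encodes a transmembrane ligand of EphB receptors and of EPHA4 that is best known from arterial endothelium. Its log2 values were 2.88, 2.81 and 2.88 on the arrays of NHE3kd 2, 3 and 10, against 0.45, 0.20 and -0.65 on those of Ctrl 1, 4 and 9. The NHE3kd arrays lay within 0.073 of each other and far above the Ctrl arrays, which were themselves spread over 1.1. The log2 difference was 2.86 (SE 0.28), a 7.25-fold higher signal. The Ctrl SD of 0.58 was among the widest on the arrays, with only 0.806% of the named genes showing a wider one, while the NHE3kd SD of 0.042 was below the median of 0.0853 over named genes (n = 3 arrays each). With Ctrl 9, the lowest array, left out, the difference was 2.53, and it was 3.08 without Ctrl 1. With the arrays quantile-normalized it was 1.98. That setting gives Ctrl and NHE3kd arrays one distribution and so shrinks differences by its own construction, here and for the lists below.

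EPHA2 encodes the receptor best known for its high expression in carcinomas, with ephrin-A1 as a main ligand. Its values were -0.85, -0.93 and -0.73 in NHE3kd 2, 3 and 10, against -0.091, -0.0058 and 0.097 in Ctrl 1, 4 and 9. The groups were 0.64 apart at their nearest arrays, well beyond the range within either group. The log2 difference was -0.84 (SE 0.072), a 1.79-fold lower signal in NHE3kd cells. EPHB3, a receptor of the crypt base in mice, had values of -1.04, -1.04 and -0.72 in NHE3kd 2, 3 and 10, against -0.0017, 0.24 and -0.24 in Ctrl 1, 4 and 9. Here the arrays were more spread, and the gap between the groups of 0.48 was about the range of the Ctrl arrays. The log2 difference was -0.93 (SE 0.15), a 1.91-fold lower signal. The differences of EPHA2 and EPHB3 were not set apart by their errors, since they differed by less than the SE of EPHB3. A larger fall was measured for 250 named genes in the case of EPHA2 and for 196 in that of EPHB3.

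EPHA7 encodes a receptor known mainly from the developing nervous system. Its values were 0.11, -0.086 and -0.026 in NHE3kd 2, 3 and 10, against 0.021, -0.0031 and -0.017 in Ctrl 1, 4 and 9. The groups overlapped and the difference was 0.00014 (SE 0.057). The Ctrl arrays were close together, with 93.5% of the named genes showing a wider Ctrl SD, and 4186 named genes had array values within a root mean square difference of 0.1 of those of EPHA7. Of the 4 genes, 3 passed an adjusted p of 0.05 by limma, from which nothing is read because the genes were chosen with this comparison known; over all 14884 named genes the share was 14.5%, with 9.96% higher and 4.51% lower, and over all 48144 probe sets it was 8.74%.

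**Figure D1:**
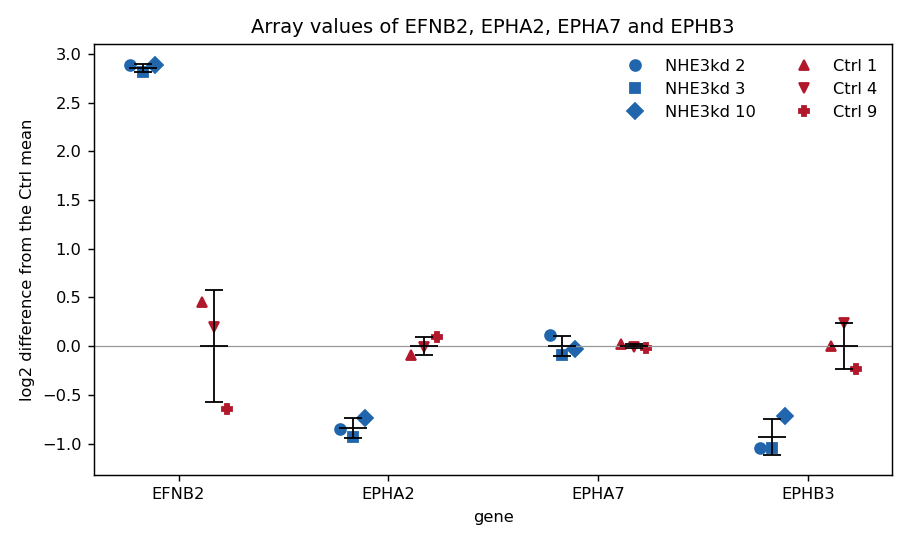
Values of EFNB2, EPHA2, EPHA7 and EPHB3 on each array, as log2 difference from the Ctrl mean (vertical axis), NHE3kd arrays in blue and Ctrl arrays in red, with a symbol for each replicate; bars give the mean ± SD of 3 arrays. The NHE3kd arrays of EFNB2 lie between 2.81 and 2.88 above widely spread Ctrl arrays, those of EPHA2 and EPHB3 lie below all Ctrl arrays, and those of EPHA7 overlap with Ctrl.

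Among the other ligands, EFNA2 and EFNB3 were lower in NHE3kd cells and none was higher. EFNB3, a ligand best known from the midline of the nervous system, had values of -0.38, -0.53 and -0.33 in NHE3kd 2, 3 and 10, against -0.027, -0.034 and 0.061 in Ctrl 1, 4 and 9. The 3 NHE3kd arrays lay below every Ctrl array (log2 difference -0.41, SE 0.062, adjusted p = 0.017 from limma). EFNA2 had values of -0.27, -0.29 and -0.30 in NHE3kd cells, against 0.0091, 0.049 and -0.059 in Ctrl cells. This was the smaller difference of the 2 genes, with NHE3kd arrays closer together than those of EFNB3 (-0.29, SE 0.038, adjusted p = 0.013). EFNB1, an ephrin-B ligand of the upper crypt in mice, had a log2 difference of -0.14 (SE 0.098, adjusted p = 0.52), and EFNA1, a main ligand of EPHA2, one of -0.12 (SE 0.16, adjusted p = 0.78). EFNA3 (0.15), EFNA5 (0.17) and EFNA4 (0.35) did not pass the test either (adjusted p from 0.52 to 0.79). EFNA4 was spread most of all: it was 0.06, 0.04 and 0.96 in NHE3kd 2, 3 and 10, against -0.42, -0.25 and 0.67 in Ctrl 1, 4 and 9, so that 1 array of each group stood well above the other two. EFNA3, its neighbour on chromosome 1, was also highest on NHE3kd 10 (0.47) and Ctrl 9 (0.30).

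No other receptor gene passed the test in either direction. An unadjusted p under 0.05 by limma was seen for 3, namely EPHA1, EPHB6 and EPHA3, and for 4838 of all 14884 named genes. EPHA1 had a log2 difference of -0.37 (SE 0.13, adjusted p = 0.17) and EPHB6, which lacks kinase activity, one of -0.29 (SE 0.079, adjusted p = 0.096), each with all NHE3kd arrays below all Ctrl arrays. EPHA3 had a difference of 0.28 (SE 0.099, adjusted p = 0.18) with arrays that just overlapped. EPHB4, the preferred receptor of ephrin-B2, had a difference of -0.22 (SE 0.13, adjusted p = 0.43), with NHE3kd arrays of -0.19, -0.27 and -0.21 against Ctrl arrays of -0.028, 0.27 and -0.24. The differences of EPHB1 (0.16), EPHA4 (0.06), EPHA6 (-0.015), EPHA5 (-0.016), EPHA10 (-0.073) and EPHA8 (-0.099) had adjusted p-values of 0.51 or more. EPHB2, for which no probe set was named, was not analysed here.

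Over the 17 genes, 2 passed (11.8%, near the 14.5% of all named genes), with a median log2 difference of -0.073 beside -0.00082 over all named genes. The NHE3kd and Ctrl arrays did not overlap for 4 of the 17, all of them lower in NHE3kd cells. Over all named genes 35.8% did not overlap, 14.7% being lower and 21.1% higher in NHE3kd cells. For 13 of the 21 measured family genes Ctrl 9 was the Ctrl array farthest from its group mean, which held for 36.9% of named genes. Both calls were lost without moderation of the variance (adjusted p = 0.052 for EFNA2 and 0.079 for EFNB3) and with the arrays quantile-normalized (0.15 for EFNA2 and 0.097 for EFNB3). EFNA2 lost the call without NHE3kd 3 (adjusted p = 0.059) and EFNB3 without Ctrl 4 (0.060), while EPHA1 passed without Ctrl 9 (0.040).

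**Figure D2:**
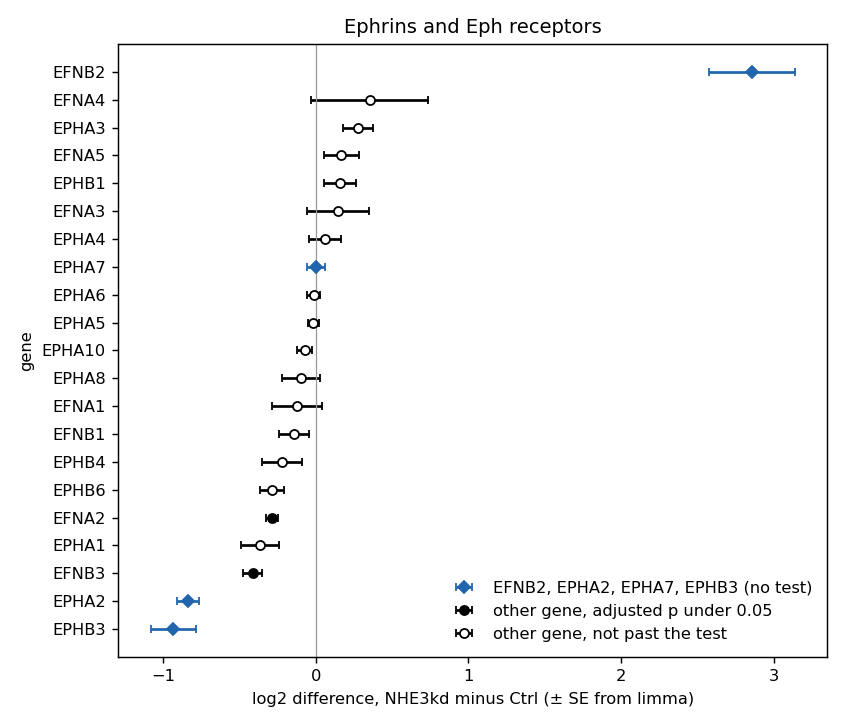
Log2 difference, NHE3kd minus Ctrl, with its SE from limma (horizontal axis) for the 21 measured ephrin and Eph genes (vertical axis), in the order of the difference. EFNB2 stands alone at 2.86, EPHB3 and EPHA2 have the 2 lowest values, and of the other 17 genes only EFNB3 and EFNA2 passed an adjusted p of 0.05.

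Most measured genes that act with Eph receptors and ephrins did not pass the test. Of 65 listed genes 42 had a named probe set, and of these 5 were higher, 3 were lower and 34 did not pass the test (19% called, near the 14.5% of all named genes), with a median log2 difference of -0.058. The tyrosine kinases of the Src family YES1 (0.60, SE 0.084, adjusted p = 0.014 from limma) and LYN (0.42, SE 0.077) were higher, and the kinase ABL2 was lower (-0.54, SE 0.098), although its 2 probe sets disagreed, at -0.070 and -1.01. DOCK4, an exchange factor that acts with ELMO2 and RHOG, was highest of the list (0.74, SE 0.087, adjusted p = 0.0090), with values of 0.68, 0.62 and 0.92 in NHE3kd cells, against 0.059, -0.059 and 0.0000029 in Ctrl cells. NGEF, the exchange factor ephexin-1 that binds EphA receptors, was lower (-0.49, SE 0.067, adjusted p = 0.014). NCSTN, the gamma-secretase subunit nicastrin, was higher (0.49, SE 0.079). These 6 had the smallest p of the list, and the other two that passed, named after their values were seen, were the adaptor GRB7 (-1.09, SE 0.21, adjusted p = 0.033) and STAT3 (0.28, SE 0.054, adjusted p = 0.036). The lowest difference belonged to PARD6B, a polarity protein whose frog counterpart is known to bind ephrin-B1 (-1.21, SE 0.28, adjusted p = 0.061, also named after its value was seen). None of the 7 listed phosphatases and ubiquitin ligases had a named probe set.

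The count of 8 was 0 without moderation of the variance (16 at an unadjusted p under 0.05), 1 after quantile normalization (YES1), 13 with named probe sets alone (5 higher and 8 lower), 2 without NHE3kd 3 or Ctrl 4 and 4 without NHE3kd 2 or Ctrl 1. With named probe sets alone 2871 of 16098 probe sets passed, against 4206 of 48144 with all of them. DOCK4 passed in all 6 fits with an array left out, NGEF in all but the one without NHE3kd 3, and YES1 in all but those without NHE3kd 3 or Ctrl 4. The call of GRB7 held only without NHE3kd 10 or Ctrl 9, that of ABL2 only without Ctrl 9, that of LYN only without Ctrl 1, that of NCSTN only without NHE3kd 3 and that of STAT3 only without NHE3kd 2, with adjusted p up to 0.12 in the other fits.

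**Figure D3:**
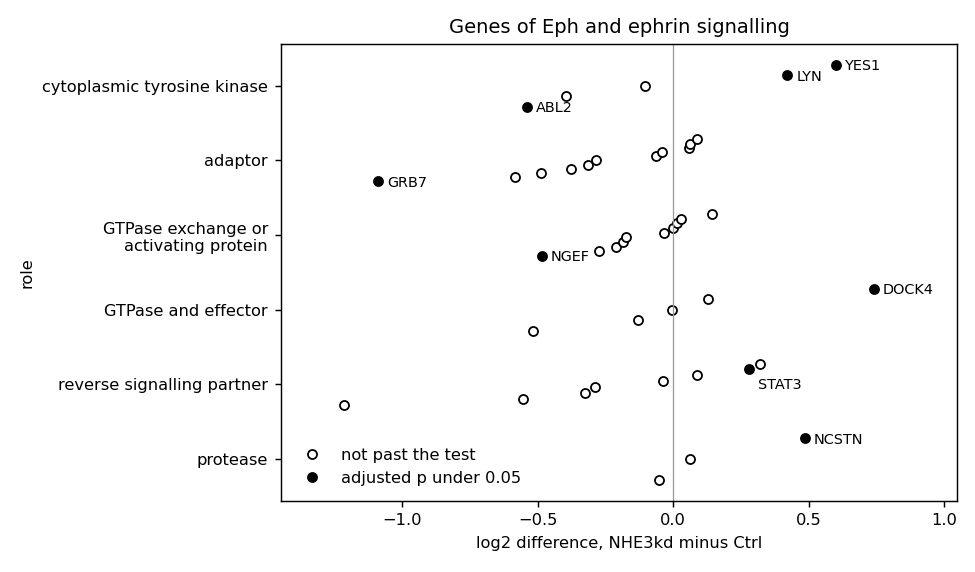
Log2 difference, NHE3kd minus Ctrl (horizontal axis), of the 42 measured genes of Eph and ephrin signalling by their role (vertical axis), with the genes past an adjusted p of 0.05 filled and named. The 8 named genes lie on both sides of 0, from GRB7 at -1.09 to DOCK4 at 0.74.

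Of the signals known to control these genes in other settings, the Wnt list had AXIN2 higher (1.11, SE 0.13, adjusted p = 0.0084 from limma) and CD44 lower (-1.01, SE 0.085, adjusted p = 0.0041) among 15 measured genes of 19 (13.3% called, near the 14.5% of all named genes). AXIN2 did not pass with the arrays quantile-normalized (adjusted p = 0.24) or without moderation of the variance (0.060), whereas CD44 passed in both. AXIN2, a feedback inhibitor of the pathway, had values of 1.04, 1.12 and 1.18 in NHE3kd cells, against -0.27, 0.074 and 0.20 in Ctrl cells. The stem cell gene LGR5, named after the values were seen and with the largest p of the list, had a difference of 0.037 and did not pass. The Wnt list had a median log2 difference of 0.18, with 11 genes above 0 and 4 below, beside -0.00082 over all named genes. The Notch list, from a pathway known to act upstream of EFNB2 in endothelium, had 1 of 23 genes lower and 1 higher (8.7% called, below the 14.5% of all named genes). Neither passed with the arrays quantile-normalized (adjusted p = 0.13 for DLL4 and 0.12 for MAML2). The ligand DLL4 was lower (-1.18, SE 0.11, adjusted p = 0.0050), with values of -1.11, -1.33 and -1.10 in NHE3kd cells, against -0.11, 0.20 and -0.094 in Ctrl cells. The coactivator MAML2 was higher (0.44, SE 0.046, adjusted p = 0.0071), with probe sets at 0.17 and 0.71.

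Other receptor tyrosine kinases and other guidance families were set beside the Eph genes. Among 35 measured receptor tyrosine kinases 1 was higher and 3 were lower (11.4%, against 14.5% of all named genes). The growth factor receptor gene FGFR2 was higher (1.37, SE 0.12, adjusted p = 0.0043 from limma). LTK (-0.52), the collagen receptor DDR1 (-0.73) and MST1R, the receptor of macrophage-stimulating protein (-0.52, with probe sets at -0.17 and -0.88), were lower. LTK passed in all 6 fits with an array left out, DDR1 in all but that without Ctrl 4 (adjusted p = 0.054), and MST1R only without Ctrl 1 or Ctrl 9. MST1R (0.34) and DDR1 (0.069) also lost the call with the arrays quantile-normalized, as did FGFR2 (0.083), and MST1R (0.095) and DDR1 (0.073) without moderation of the variance. Among 25 measured guidance cues and receptors 3 were higher, namely NEO1 (0.48), SLIT1 (0.59) and NRP2 (0.53), and 3 were lower, namely the plexins PLXND1 (-0.56) and PLXNB2 (-0.21) and the netrin receptor UNC5A (-0.26). This was 24% in all, against 14.5% of all named genes, and all 6 lost the call with the arrays quantile-normalized and without moderation of the variance. The median log2 differences of these lists, -0.072 and -0.043, were close to that of the ephrin and Eph genes. Without Ctrl 9 the kinase list had 10 calls and without Ctrl 4 it had 2. The guidance list had 1 call without NHE3kd 3, 2 without NHE3kd 10 or Ctrl 4 and 3 without NHE3kd 2 or Ctrl 1, and PLXND1, PLXNB2 and UNC5A each passed in 1 of these 6 fits, NRP2 in 2 and SLIT1 in 4.

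The genes around EFNB2 on chromosome 13 included one that was also far higher in NHE3kd cells. LINC00460, a long noncoding RNA gene, was the nearest measured gene on one side of EFNB2, with 5 other RefSeq genes between them, and had a log2 difference of 3.36 (adjusted p = 0.0031 from limma). On the other side the nearest was ARGLU1 (0.24, adjusted p = 0.17). The 20 measured genes around EFNB2, 10 on each side, had a median of 0.014, and 4 of them were higher and 0 lower, where 9.96% of all named genes were higher and 4.51% lower. Around EPHA2 on chromosome 1, 1 of 20 was higher and 2 were lower (median -0.044), and its nearest measured neighbours SRARP (-0.098) and ARHGEF19 (0.028), which encodes another exchange factor of the ephexin kind, did not pass. Around EPHB3 on chromosome 3, 0 of 20 were higher and 1 was lower (median -0.13), and the nearest were CHRD (-0.18) and VPS8 (-0.21), neither past the test.

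EPHA7 lay among genes that were higher although it was not. Of its 20 neighbours on chromosome 6, 8 were higher and 0 were lower, against 9.96% higher over all named genes, and their median was 0.50. The stretch of the long arm from IMPG1 to ASF1A was picked with these differences known, so its counts only describe it. In it 53 of the other 119 measured genes were higher and 0 lower, with a median of 0.40. Of the 640 measured elsewhere on the chromosome 78 were higher and 39 lower. The genes next to EPHA7, MIR4643 (-0.027) and FHL5 (0.00065), were as flat as EPHA7 itself. Since no level is known, whether these 3 genes were expressed at all cannot be read from the arrays.

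**Figure D4:**
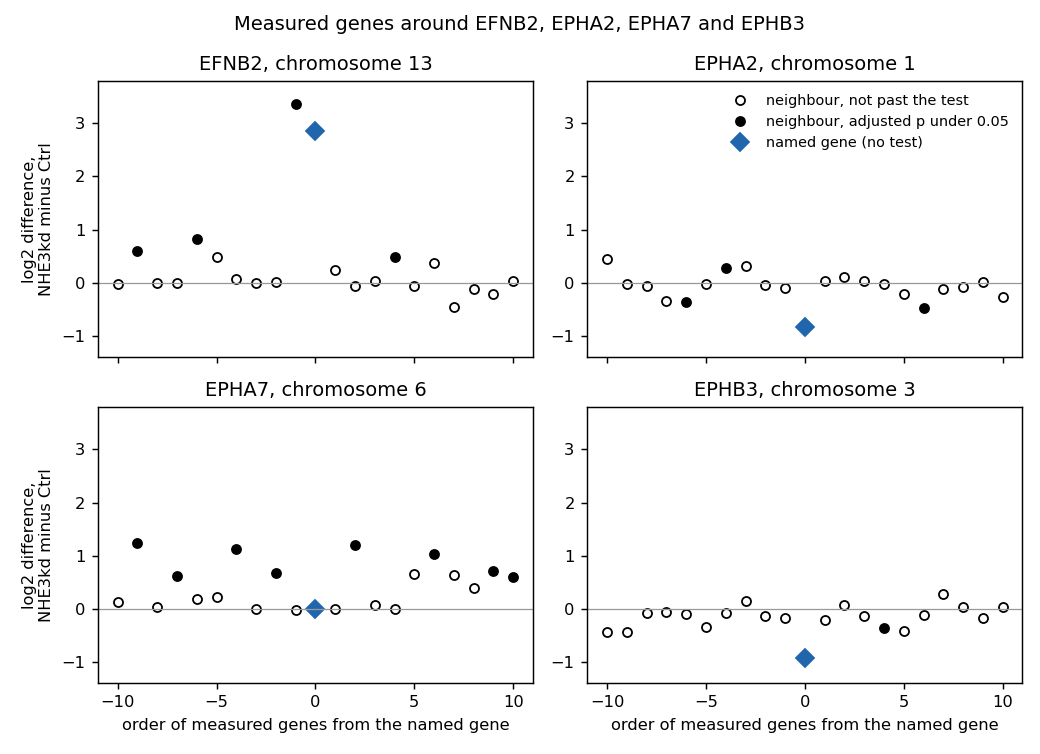
Log2 difference, NHE3kd minus Ctrl (vertical axis), of the 10 measured genes on each side of EFNB2, EPHA2, EPHA7 and EPHB3 by their order along the chromosome (horizontal axis, in genes), with neighbours past an adjusted p of 0.05 filled. LINC00460 stands beside EFNB2 at 3.36, and 8 neighbours of EPHA7 are higher while EPHA7 is at 0.

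The named genes most like each of the 4 were found by the root mean square difference of their values over the 6 arrays, a description that rests mostly on the difference between the groups. For EFNB2 they were the long noncoding RNA genes PURPL (0.43) and LINC00460 (0.57) and the proliferation marker MKI67 (0.61), none of them near, since EFNB2 had no gene within 0.1. Only 2 named genes rose more than EFNB2, namely PURPL (3.38) and LINC00460 (3.36), so their likeness to EFNB2 follows mostly from the size of the rise. LINC00460 was also the nearest measured neighbour of EFNB2 on one side, and its NHE3kd arrays were spread from 2.86 to 3.84. For EPHA2 the nearest were VAT1 (0.063), EFEMP2 (0.077) and RGL2 (0.082), on 3 other chromosomes, and 13 genes lay within 0.1. For EPHB3 they were KLK4 (0.080), ETHE1 (0.085) and TRIB1 (0.092), and 4 genes lay within 0.1. For EPHA7 they were LINC00636 (0.015), MYO1H (0.017) and SMAD5-AS1 (0.022).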

How the data were processed

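The authors summarized the probes of each array with RMA16 in GeneSpring GX (version not given in the sources used here), subtracting the mean of the Ctrl arrays, so that deposited values are log2 differences and the Ctrl mean of every probe set lies within 1.27e-06 of 0. The submitters' processing notes name the build hg19. Of 48144 probe sets, 16098 had a single gene symbol in the platform annotation (symbols updated through RefSeq, GRCh38.p14), 0 had several and 32046 are unnamed here.

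Limma 3.58.1 in R 4.3.3 (lmFit and eBayes, two-sided) was fitted to all probe sets on the 6 arrays without covariates, with Benjamini-Hochberg adjustment across all 48144 and a threshold of 0.05. A gene with several probe sets was tested by their mean with the prior variance of that fit (1.61 prior degrees of freedom beside 4 residual ones), its adjusted p being read off the curve of the probe sets. The fit was tested on simulated data. On the deposited values of the 6 arrays, not the simulated ones, limma gave 4838 of the 14884 named genes an unadjusted p under 0.05. That is the background for counts at that threshold. The same share was not counted under the alternative settings. Array medians lay between -0.018 and 0.0018. The number of arrays limits the precision. No scanner files were used, so neither dim probe sets nor batches could be looked for.

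The 4 genes, the stretch of chromosome 6 and all lists were chosen with earlier results of these data known. The text names all measured ephrin and Eph genes, up to 6 genes with the smallest p among those past the test in each list, the 3 genes most like each of the 4 and their nearest measured neighbours. Some genes were named beyond this, among them KRT20, GRB7, STAT3, PARD6B and LGR5. Alternatives were arrays brought to one median, quantile normalization, array weights, an unmoderated t-test with equal variances, named probe sets only, the probe set with the smallest difference of a gene, and each array left out in turn.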

Additional observations from a re-analysis of the deposited data

How the results depend on the processing

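Quantile normalization gave the narrow Ctrl arrays and the wider NHE3kd arrays one distribution and so shrank the differences by its own construction: EFNB2 was 1.98, EPHA2 -0.59 and EPHB3 -0.72. Under it 478 probe sets passed, against 4206, and the calls were 0 for the other ephrin and Eph genes (2 at an unadjusted p under 0.05 by limma), 1 for signalling, 1 for the other receptor tyrosine kinases, 0 for the other guidance genes (7 at an unadjusted p under 0.05), 1 for the Wnt list and 0 for the Notch list (4 at an unadjusted p under 0.05). With an unmoderated t-test the counts were 840 probe sets, 0 other ephrin and Eph genes (3 at an unadjusted p under 0.05), 0 signalling genes, 2 receptor tyrosine kinases, 0 guidance genes (8 at an unadjusted p under 0.05) and 1 Wnt gene. At a corrected p under 0.5, a threshold printed in the paper, that test passed 17167 probe sets and 5 of the 17 other ephrin and Eph genes. The paper joins that threshold to a limit on fold change, which was not applied here, so these are not its counts. In a figure legend it gives an adjusted p under 0.05 from a moderated test. With named probe sets alone 13 signalling and 4 Notch genes passed, where 2871 of 16098 probe sets passed, against 4206 of 48144 with all of them. With the least changed probe set of each gene 1 Notch gene passed. With an array left out, EFNB2 lay between 2.53 and 3.08, EPHA2 between -0.89 and -0.79, EPHB3 between -1.05 and -0.81 and EPHA7 between -0.056 and 0.043. Calls then ran from 1685 to 3682 for probe sets (1685 without NHE3kd 3, 1916 without Ctrl 4 and 2449 without NHE3kd 10), from 1 to 3 for the other ephrin and Eph genes (1 without NHE3kd 3 or Ctrl 4), from 2 to 10 for signalling, from 2 to 10 for the kinases, from 1 to 5 for the guidance genes and from 2 to 3 for the Notch list. Beyond what the construction of a setting shows, the cause was not tested. Array weights gave 12 signalling calls (5 higher and 7 lower), 6 kinase, 7 guidance and 3 Notch calls, while 5007 probe sets passed, against 4206 without weights. Bringing arrays to one median changed no count of calls in a list, and no followed gene that was called changed sign under any setting. No paired analysis was possible because NHE3kd and Ctrl samples share no replicate number.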
